A study of Mus musculus with 18 samples.

Results

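Genes that normally mark the stomach, intestine and liver were examined in mouse lung tumors: the gastrokines Gkn1, Gkn2 and Gkn3, the trefoil factors Tff1, Tff2 and Tff3, the regulators Hnf4a and Cdx2, the lectin Lgals4 and the glucose transporter Slc2a2. These 10 genes, of 18193 measured by a probe set with a single gene symbol, had 16 such probe sets among them. For each gene the probe set with the highest mean was used and the others served as a check. The tissue came from B6C3F1/N mice on Affymetrix mouse arrays, 6 per group, in the groups vehicle control lung, spontaneous lung tumors, and lung tumors of mice exposed to antimony trioxide, a metal oxide dust, here called treated tumors. The mice were 5 to 6 weeks old at the start, and the study exposed 60 males and 60 females per group, whole body, to aerosol at 0, 3, 10 or 30 mg per cubic metre. An exposure day was 6 hours plus 12 minutes, on 5 days of the week, over at most 105 weeks. All mice shared the housing and diet, and the labels name no transgene. The animal, its sex and its exposure level are not labelled for any array, so whether the treated tumors share an exposure level is unknown. The p-values reflect only the variation among these arrays, which the labels do not tie to separate animals. Tumors were dissected from the surrounding lung, whereas the control samples were whole lung.

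Values are log2 expression on the scale deposited by the authors, where a difference of 1 is a doubling. Control 5 and spontaneous tumors 5 and 6 stood apart from the other arrays, with median correlations across probe sets of 0.301 to 0.476 against 0.920 to 0.973, and were left out of all tests. That left 15 arrays, 5 of control lung, 4 of spontaneous tumors and 6 of treated tumors. Sftpc, the surfactant protein that defines alveolar type 2 cells, read 13.97 to 14.40 on the 15 arrays used, near the top of their scale. The mean of the 15 normal lung stroma and ciliated genes was 11.2 to 11.7 on the control arrays, 7.30 to 8.15 on the spontaneous and 7.21 to 8.03 on the treated arrays. Of those 15, 15 fell in spontaneous and 14 in treated tumors. In such bulk samples fewer cells of a type and less RNA per cell cannot be told apart. The hybridization control bioB was 10.6 to 11.2 on the control arrays and 10.2 to 10.6 on the tumor arrays. The Gapdh 3-prime minus 5-prime difference, a sign of RNA quality, was 1.84 to 2.21 in control, 1.11 to 1.40 in spontaneous and 1.09 to 1.97 in treated arrays. The part of these shifts in the results below was not tested.

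Gastrokines are small secreted proteins with a BRICHOS domain, made by mucous cells of the stomach, and trefoil factors are small disulfide-rich peptides secreted with mucus, TFF1 and TFF2 mainly in the stomach and TFF3 by intestinal goblet cells. GKN2 forms a disulfide-linked dimer with TFF1 in the gastric mucosa. HNF4A is a nuclear receptor that drives gene expression in liver, intestine and stomach, CDX2 is the homeobox factor of the intestine, LGALS4 is a galectin of gut epithelium, and SLC2A2, also called GLUT2, carries glucose in liver, intestine and pancreatic beta cells. In mouse lung adenocarcinoma models, loss of the lung factor NKX2-1 is known to go with a switch to a gastric program in which the FOXA factors and HNF4A take part.

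Gkn2 and Slc2a2 rose in treated tumors, Slc2a2 also in spontaneous tumors, and no member fell in any comparison. By limma, with p-values adjusted over all genes tested and a gene called at an adjusted p under 0.05, 1 of 10 members was higher in spontaneous tumors than in control lung. Over all genes tested in that comparison, 20.1% were called higher and 12.9% lower. In treated tumors against control, 2 of 10 members were higher, where 23.8% of all genes were called higher and 15% lower. The members' shares were therefore near or below the background. Without treated tumor 1, 4 of 10 were called higher, the added ones being Hnf4a with a log2 fold change of 1.05 ± 0.38 (SE) and Lgals4 with 0.71 ± 0.21. The share of all genes called without that tumor is not given here, so this count was not set against a background. Between treated and spontaneous tumors 0 of 10 members were called by limma, 3 of 10 had an unadjusted p under 0.05, and 0 of 10 did by the exact permutation test, 2-sided, whose smallest possible p is 0.00476. In that comparison 0.033% of all genes were called higher and 0.022% lower. The median log2 fold change of the members was 0.13 in spontaneous and 0.68 in treated tumors against control, beside 0.12 and 0.089 for all genes. Both comparisons use the same control arrays. All tumor arrays lay above all control arrays for 1 member in spontaneous tumors and 2 in treated tumors, against 17.8% and 14.4% of all genes. For 0 members did all treated tumors lie above all spontaneous tumors, which 0.83% of genes did.

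**Figure D1:**
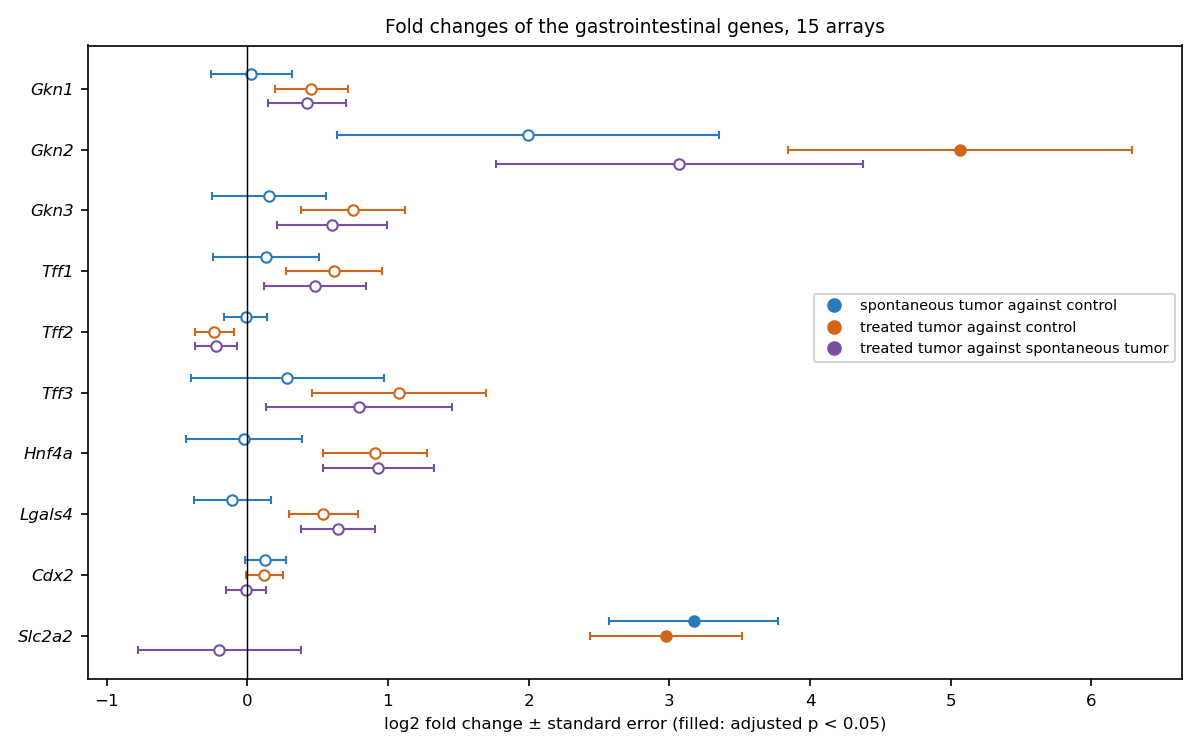
Log2 fold change with its standard error for the 10 genes in the 3 comparisons, on the horizontal axis, from limma over 15 arrays. Filled points passed an adjusted p under 0.05: Slc2a2 in both tumor groups and Gkn2 in treated tumors.

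Gkn2 was the member with the largest change. Its probe set read 4.09, 4.42, 4.52, 4.29 and 4.10 on the control arrays. Spontaneous tumors 1 to 4 read 8.67, 5.19, 4.32 and 6.95. Treated tumors 1 to 6 read 5.56, 11.47, 10.33, 5.21, 12.51 and 11.04. Treated tumors 2, 3, 5 and 6 thus formed the high end, 6.05 to 8.23 log2 units above the control mean. Treated tumors 1 and 4 were only 1.27 and 0.92 above it. Spontaneous tumors 1 and 4 lay in between, and spontaneous tumor 3 overlapped the controls. Against control, treated tumors were higher by 5.07 ± 1.22 (SE, log2), with limma's adjusted p = 0.00406 and 6 of 6 tumors above every control. The low control values of Gkn2, and of Slc2a2 below, cannot be told apart from background, so these differences carry no exact fold. In spontaneous tumors the difference was 2.00 ± 1.35, adjusted p = 0.28 by limma, with 3 of 4 above every control, and this did not pass. That standard error rests on 1 spread shared by all 3 groups, the widely spread treated tumors included. The exact permutation test, 2-sided, gave an unadjusted p of 0.0238 for Gkn2 in spontaneous tumors against control. By that test 7670 of 18193 genes had an unadjusted p under 0.05. The treated minus spontaneous difference was 3.07 ± 1.30, which did not pass after adjustment (limma, adjusted p = 0.527), with 4 of 6 treated tumors above every spontaneous one. The spread within groups grew with the mean: the SD was 0.19 in control (n = 5), 1.93 in spontaneous (n = 4) and 3.16 in treated tumors (n = 6).

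The neighbours of Gkn2 did not share its size of change. In the RefSeq annotation of the mouse assembly GRCm38.p6, Gkn1 (chr6:87345653-87350915), Gkn2 (chr6:87373365-87379494) and Gkn3 (chr6:87383319-87388935) lie in a row with 0 other genes between them, 22449 and 3824 bases apart. Gkn1 and Gkn3 run on the minus strand and Gkn2 on the plus strand. The 250 bases before each start are shown because the 3 genes sit side by side and yet read differently. They are given 5′ to 3′ on the gene's own strand: Gkn1 at chr6:87350916-87351165, Gkn2 at chr6:87373115-87373364 and Gkn3 at chr6:87388936-87389185. Capitals mark the motifs that were found among those searched.
Gkn1: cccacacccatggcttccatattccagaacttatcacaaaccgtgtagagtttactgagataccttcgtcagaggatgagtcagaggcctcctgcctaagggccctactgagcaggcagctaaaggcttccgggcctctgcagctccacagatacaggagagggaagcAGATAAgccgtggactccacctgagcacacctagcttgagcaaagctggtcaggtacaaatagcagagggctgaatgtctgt
Gkn2: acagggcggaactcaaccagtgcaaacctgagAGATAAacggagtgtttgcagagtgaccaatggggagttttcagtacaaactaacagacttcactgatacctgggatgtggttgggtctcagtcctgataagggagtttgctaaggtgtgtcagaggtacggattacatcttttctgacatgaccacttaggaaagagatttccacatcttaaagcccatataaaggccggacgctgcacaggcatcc
Gkn3: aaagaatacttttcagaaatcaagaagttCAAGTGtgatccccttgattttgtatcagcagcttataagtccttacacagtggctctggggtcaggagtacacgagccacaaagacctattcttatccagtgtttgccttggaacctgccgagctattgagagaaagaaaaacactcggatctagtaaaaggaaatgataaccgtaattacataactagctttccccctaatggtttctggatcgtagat
All motifs were searched on both strands, and none of the letters used here is part of another. For HNF4 the letters were CAAAGTCCA or CAAAGGTCA. For the FOXA factors they were TGTTTAC. For the CDX factors they were TTTATNG. For the GATA factors they were AGATAA. For NKX2-1 they were CAAGTG. The Gkn1 and Gkn2 windows each held 1 GATA match, 82 to 77 and 218 to 213 bases before the start, and the Gkn3 window held 1 NKX2-1 match 221 to 216 bases before it. Of 32851 promoter windows of this length, 9.99% held the GATA letters, 11.6% the NKX2-1 letters, 9.81% the CDX letters, 3.17% the FOXA letters and 0.807% one of the HNF4 forms. A match is a description of the letters, not a measured site.

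Gkn1 ranged from 4.05 to 4.40 in control, from 3.95 to 4.79 in spontaneous and from 3.93 to 5.86 in treated tumors. The single high array was treated tumor 5, at 5.86. The treated difference from control was 0.46 ± 0.26 and did not pass (limma, adjusted p = 0.185). Its second probe set gave 0.63 ± 0.25, adjusted p = 0.0555, from the fit over all probe sets.

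Gkn3, a gastrokine of the mouse stomach, ranged from 5.48 to 6.28 in control and from 5.76 to 6.27 in spontaneous tumors. Treated tumors read 5.81, 5.96, 6.32, 5.91, 8.19 and 7.44 in the order of their numbers. Tumors 5 and 6 were the high ones, and both were also among the 4 with high Gkn2. The treated difference of 0.75 ± 0.37 did not pass (limma, adjusted p = 0.12), and the second probe set gave 1.01 ± 0.48, adjusted p = 0.117.

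**Figure D2:**
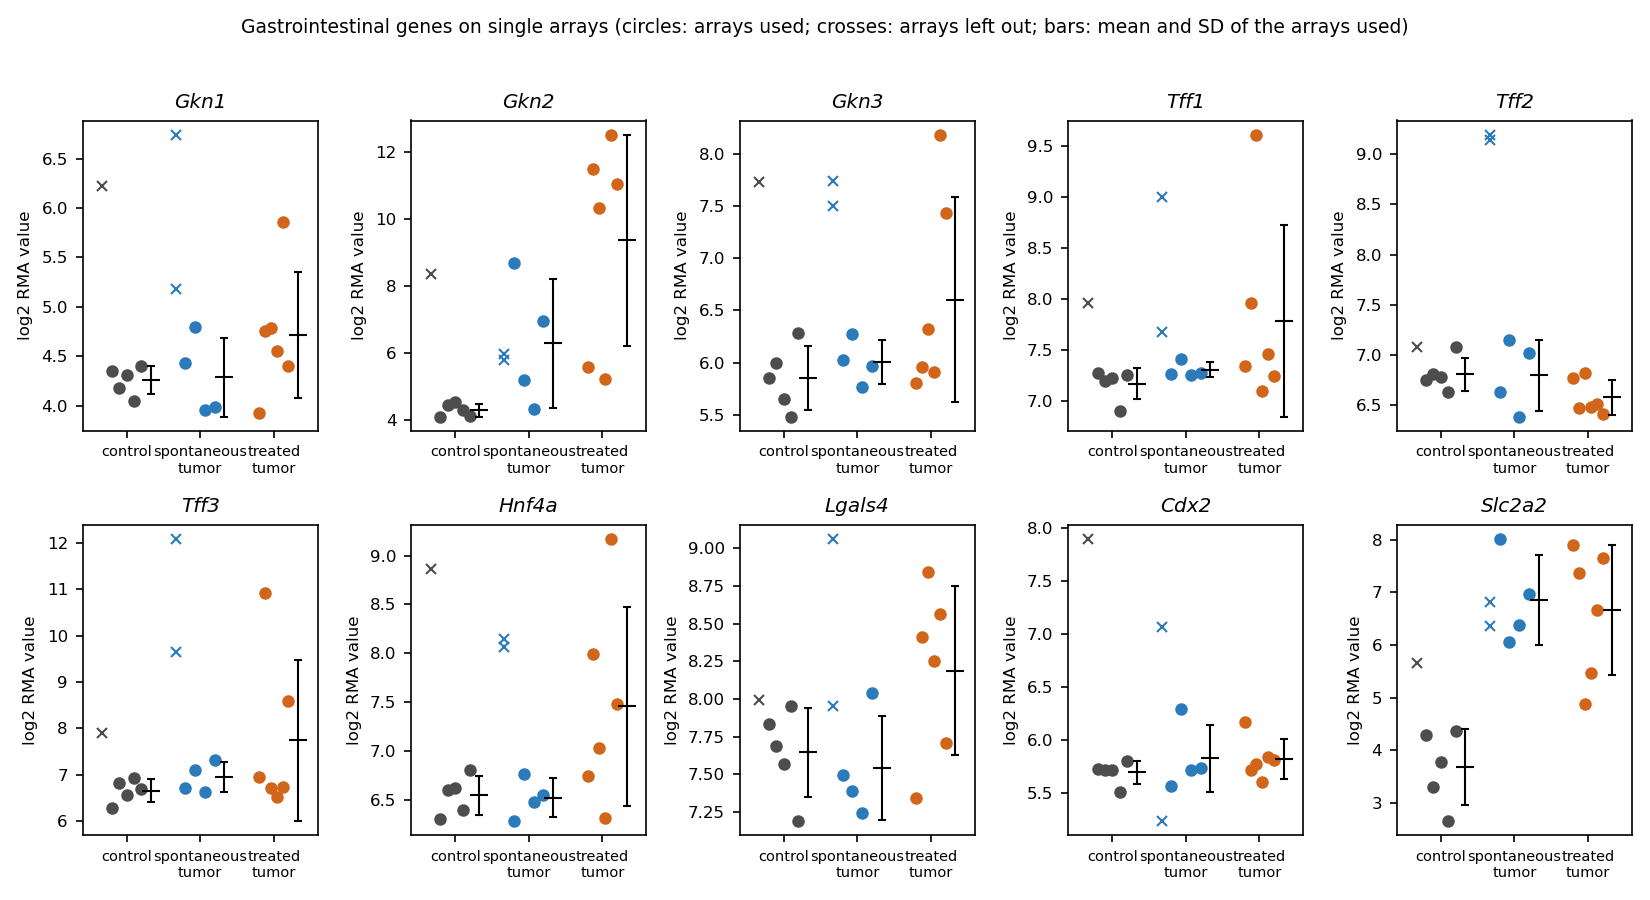
Log2 value of each gene on every array, 1 panel per gene with its own vertical scale, grouped by control, spontaneous and treated tumor. Circles are the arrays used, crosses those left out, and bars the mean and SD. Gkn2 spreads from 5.21 to 12.51 over the treated tumors, while Cdx2 and Tff2 stay within 1 log2 unit on the arrays used.

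Tff1 and Tff3 were high in 1 or 2 treated tumors each, and Tff2 in none. These genes lie in a row on chromosome 17 in GRCm38.p6, Tff3 (chr17:31125306-31129611), Tff2 (chr17:31141062-31144282) and Tff1 (chr17:31161395-31165060), with 0 other genes between them. Tff1 read 6.91 to 7.28 in control and 7.26 to 7.41 in spontaneous tumors. Its treated values were 7.34, 7.97, 9.61, 7.10, 7.46 and 7.25, so that tumor 3 stood alone and tumor 2 came next. The difference from control was 0.62 ± 0.34, limma's adjusted p = 0.167. It was 0.25 without treated tumor 3.

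Tff2, the trefoil factor of gastric neck cells, read 6.63 to 7.07 in control, 6.38 to 7.15 in spontaneous and 6.40 to 6.81 in treated tumors, and the 3 groups overlapped. Its treated difference from control was -0.23 ± 0.14, adjusted p = 0.208 by limma.

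Tff3 read 6.29 to 6.93 in control and 6.63 to 7.33 in spontaneous tumors. Treated tumors read 6.94, 10.92, 6.72, 6.53, 6.73 and 8.59. Tumor 2 was far above the others and tumor 6 second. The difference from control was 1.08 ± 0.62 and did not pass (limma, adjusted p = 0.188). It was 0.44 without treated tumor 2.

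Hnf4a depended on the probe set. The probe set with the highest mean read 6.31 to 6.81 in control and 6.29 to 6.77 in spontaneous tumors. Treated tumors read 6.75, 7.99, 7.03, 6.32, 9.17 and 7.49. Tumors 2, 3, 5 and 6, the 4 with high Gkn2, were the 4 above every control and every spontaneous tumor. The difference from control was 0.91 ± 0.37, limma's adjusted p = 0.0648, and did not pass. The 3 further probe sets were called higher in the fit over all probe sets, at 2.70 ± 0.95 (adjusted p = 0.036), 2.38 ± 0.76 (adjusted p = 0.0226) and 2.66 ± 0.83 (adjusted p = 0.0197), all by limma. The one with the lowest mean read 2.42 to 3.06 in control, 2.46 to 2.63 in spontaneous tumors, and 2.51, 7.16, 4.0, 3.08, 8.33 and 6.50 in treated tumors 1 to 6. Again tumors 2, 3, 5 and 6 were the high ones. Spontaneous tumors differed from control by -0.073 ± 0.92 on that probe set, adjusted p = 0.962 by limma. Treated against spontaneous tumors gave 2.73 ± 0.89 there, adjusted p = 0.409, which did not pass. Of the further sets, 2 carry the suffix of probes that match several transcripts, so their values may include other transcripts.

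Hnf4a (chr2:163506811-163572907, GRCm38.p6, plus strand) has windows at 2 starts in the RefSeq table, printed here because its probe sets differed in response. The first window is chr2:163506607-163506856 and the second chr2:163546905-163547154, each 250 bases, 5′ to 3′ on the plus strand, with the GATA match of the first in capitals.
Hnf4a upstream start: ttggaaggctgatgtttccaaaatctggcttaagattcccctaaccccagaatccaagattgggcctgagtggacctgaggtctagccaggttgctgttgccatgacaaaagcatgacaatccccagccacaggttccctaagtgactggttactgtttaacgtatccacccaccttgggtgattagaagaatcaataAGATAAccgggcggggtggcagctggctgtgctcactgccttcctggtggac
Hnf4a downstream start: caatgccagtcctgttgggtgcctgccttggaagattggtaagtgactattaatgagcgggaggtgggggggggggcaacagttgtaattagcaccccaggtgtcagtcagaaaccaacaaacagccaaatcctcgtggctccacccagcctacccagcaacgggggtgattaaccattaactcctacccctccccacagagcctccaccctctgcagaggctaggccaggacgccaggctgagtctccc
The GATA match lay 52 to 47 bases before the first start. The second window held none of the letters searched. Which start each probe set reads was not analysed here.

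Across tumors, Gkn2 and Hnf4a were high in the same arrays. Over the 10 tumors Pearson's r was 0.792 (permutation p = 0.00153, 0.0841 after adjustment over 55 pairs) and Spearman's rho 0.709 (permutation p = 0.0255, adjusted 0.343). Without the 2 arrays farthest from the median of Gkn2, r was 0.65. Within the 6 treated tumors r was 0.843 (exact permutation p = 0.0319, adjusted 0.755). The 3 further probe sets of Hnf4a were taken as an alternative after the data were seen. With them r over the 10 tumors was 0.885, 0.883 and 0.874. The permutation p was 5e-04, 3e-04 and 2e-04, with adjusted p of 5e-04, 0.00045 and 0.00045 over those 3. That adjustment does not cover the choice of this pair, which had the smallest permutation p for r of the 55. The 3 probe sets are also assigned to the same gene, so they are not separate support. Spearman's rank correlation was 0.794, 0.818 and 0.915 (permutation p = 0.00879, 0.00602 and 0.00048). Within treated tumors those r were 0.955, 0.945 and 0.904. The relation lay in treated tumors 2, 3, 5 and 6: spontaneous tumor 1 had Gkn2 at 8.67 and Hnf4a on its lowest probe set at 2.53, within the control range. With the 2 left-out tumor arrays added, r of the main probe sets was 0.546. All 10 arrays were normalized together.

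**Figure D3:**
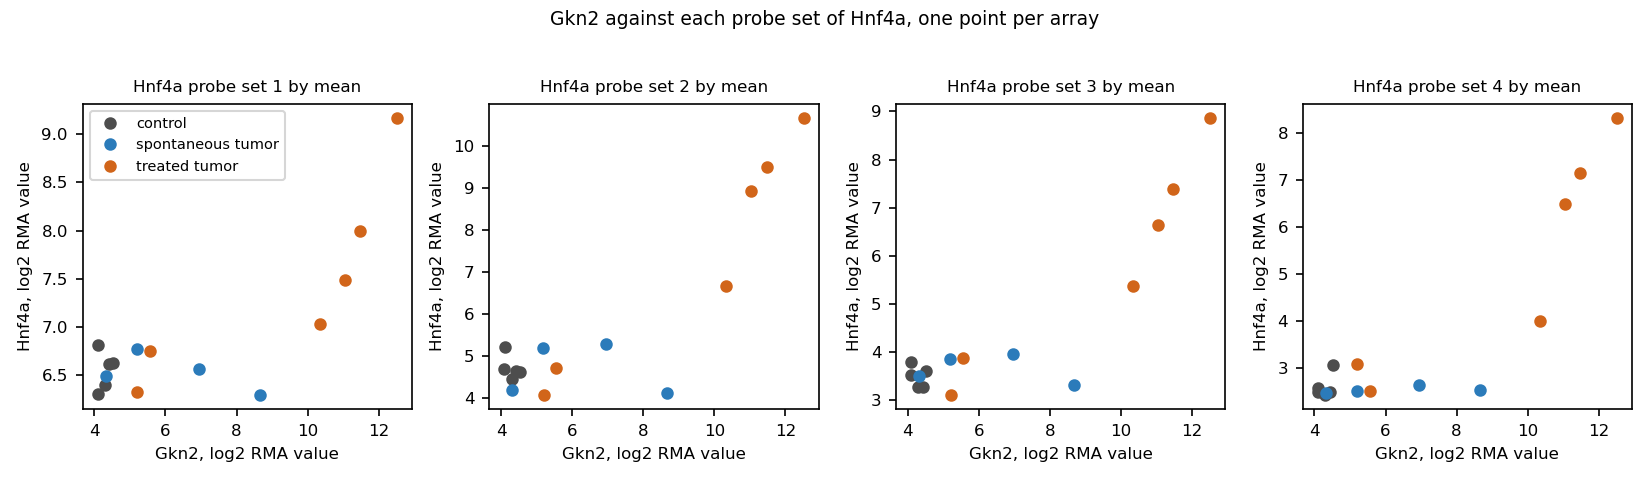
Hnf4a on each of its 4 probe sets, in the order of their mean, against Gkn2, both as log2 values, 1 point per array over the 15 arrays. In all 4 panels treated tumors 2, 3, 5 and 6 rise together, from 10.33 to 12.51 in Gkn2, while spontaneous tumor 1 has high Gkn2 (8.67) and low Hnf4a.

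Of the 55 pairs among the 10 members and Nkx2-1, 28 had no gene with an array set apart by more than 0.5 of the range, a limit chosen after the data were seen. Among those 28, 0 passed after adjustment and 4 had an unadjusted permutation p under 0.05. Gkn3 with Hnf4a had r = 0.804 (permutation p = 0.0156, adjusted 0.202), which dropped to 0.185 without 2 arrays and so rested on them. Gkn2 with Slc2a2 gave r = 0.17 (permutation p = 0.628, adjusted 0.937) and Hnf4a with Slc2a2 r = 0.0888 (permutation p = 0.816, adjusted 0.971). Hnf4a with Nkx2-1, the lung lineage factor, gave r = -0.56 and rho = -0.73 (permutation p = 0.0831 and 0.0202, adjusted 0.416 and 0.343). Gkn1, Tff1 and Tff3 each had a lone high array, and no pooled r is given for them.

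Lgals4 read 7.19 to 7.96 in control and 7.24 to 8.04 in spontaneous tumors. Treated tumors read 7.34, 8.41, 8.84, 8.25, 8.56 and 7.71, of which tumors 2, 3, 4 and 5 were above every array of the other groups. The difference was 0.54 ± 0.24 against control (limma, adjusted p = 0.095) and 0.65 ± 0.26 against spontaneous tumors (adjusted p = 0.494), and neither passed. Some mouse strains carry a near-identical copy of this gene, so its signal could include that copy.

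Cdx2 was flat. Its main probe set read 5.51 to 5.80 in control, 5.57 to 6.29 in spontaneous and 5.60 to 6.16 in treated tumors. The differences from control were 0.13 ± 0.15 and 0.12 ± 0.13 (limma, adjusted p = 0.529 and 0.508). The second probe set gave larger differences, 0.31 ± 0.17 in spontaneous and 0.33 ± 0.16 in treated tumors. These did not pass either (limma over all probe sets, adjusted p = 0.184 and 0.109). Cdx1, its relative in the intestine, was called higher in spontaneous tumors by 0.48 ± 0.14 (limma, adjusted p = 0.019) and not in treated tumors, at 0.34 ± 0.13 (adjusted p = 0.053). The Cdx1 means were 4.41 in control, 4.89 in spontaneous and 4.74 in treated tumors, low values that cannot be told apart from background.

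Slc2a2 rose in both tumor groups. Control arrays read 4.29, 3.30, 3.77, 2.66 and 4.38. Spontaneous tumors 1 to 4 read 8.02, 6.06, 6.38 and 6.97, and treated tumors 1 to 6 read 7.91, 7.37, 4.89, 5.47, 6.67 and 7.65. Neither tumor group overlapped the controls, and the tumor groups overlapped each other. The log2 fold change was 3.17 ± 0.60 in spontaneous tumors, 4 of 4 above every control (limma, adjusted p = 0.00094), and 2.98 ± 0.54 in treated tumors, 6 of 6 above (adjusted p = 0.000506). Treated minus spontaneous was -0.20 ± 0.58, adjusted p = 0.947 by limma. Treated tumors 3 and 4 had the lowest Slc2a2 of all tumors, and tumor 3 was one of those with high Gkn2.

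**Figure D4:**
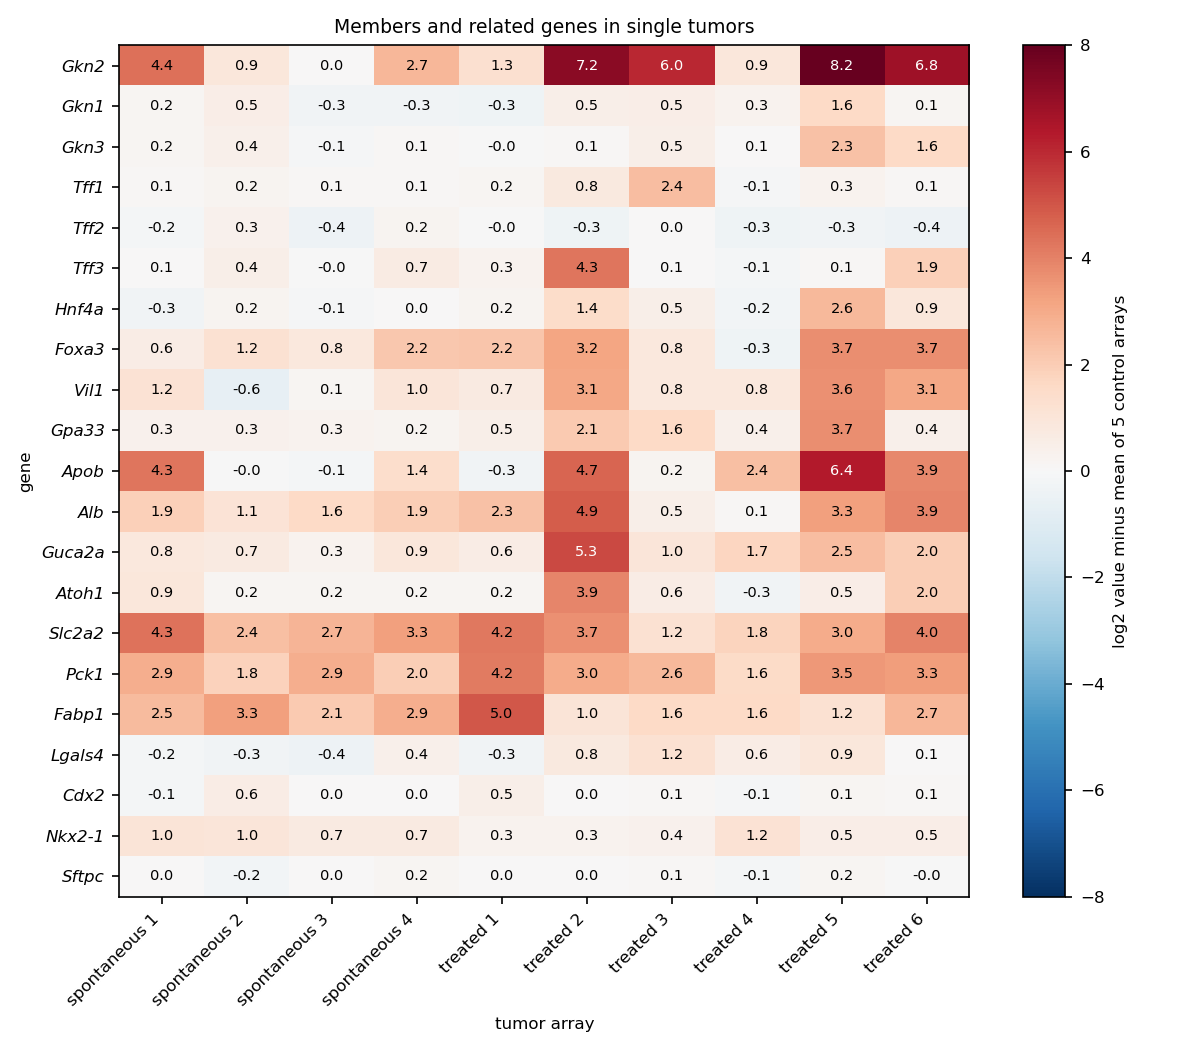
Log2 value minus the mean of the 5 control arrays, for the 10 genes and related genes (rows) on the 10 tumor arrays (columns), with the number in each cell and red above, blue below the control mean. Most related genes shown are ones called higher in treated tumors. Flat genes such as Hnf4g and Gata4, and the gastric surface and gland list, are not shown. Gkn2 reaches 8.23 in treated tumor 5, whereas Slc2a2 lies above the control mean in every tumor. Sftpc reads near the top of the arrays' scale, where a change would be hard to see.

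Other genes of the gut and liver programs were counted in the same fit, to be read against the shares of all genes called, 23.8% higher and 15% lower in treated tumors and 20.1% higher and 12.9% lower in spontaneous tumors. Of 18 gastric surface and gland genes, 8 rose and 2 fell in treated tumors, and 2 rose and 0 fell in spontaneous tumors, a share of risers below that of all genes in the latter. Those that rose in treated tumors included Muc1, a membrane mucin that lung also makes, by 0.85 ± 0.20 (limma, adjusted p = 0.00342), Anxa10, an annexin of gastric epithelium, by 0.71 ± 0.24 (adjusted p = 0.0267), and Psca, a stomach surface antigen, by 0.94 ± 0.32 (adjusted p = 0.0284). Capn9, a calpain of gastric surface cells, gave 1.08 ± 0.37 (adjusted p = 0.0298). Muc5ac, the gastric surface mucin that airway goblet cells also make, rose by 0.57 ± 0.21 (adjusted p = 0.0415). Muc1 was as high in spontaneous tumors, with a mean of 11.9, against 10.9 in control and 11.7 in treated tumors. The spontaneous means of Anxa10, Psca, Capn9 and Muc5ac were 4.64, 5.35, 4.39 and 6.81, each between those of control and treated tumors. Cblif, gastric intrinsic factor, fell by 0.50 on the log2 scale (adjusted p = 0.00995). The Cblif means, 4.35 in control and 3.86 in treated tumors, are low values that cannot be told apart from background. Chia1, a chitinase of stomach and lung, fell by 1.92 on the log2 scale (adjusted p = 0.0418). The median over the list was 0.42 in treated and 0.23 in spontaneous tumors, beside 0.089 and 0.12 over all genes.

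Of 18 intestinal epithelial genes, 7 rose in treated tumors, where 23.8% of all genes did, and 3 in spontaneous tumors, a share below the 20.1% of all genes. In neither group did any fall. Vil1, the villin of brush borders, rose by 2.03 ± 0.55 in treated tumors (limma, adjusted p = 0.00849), and its 3 highest arrays were tumors 5, 2 and 6 at 9.44, 8.90 and 8.89. Guca2a, guanylin, rose by 2.19 ± 0.59 (adjusted p = 0.0083) with tumor 2 at 11.33 against 5.85 to 6.25 in control. Gpa33, an intestinal surface antigen, rose by 1.45 ± 0.47 (adjusted p = 0.0234), with tumor 5 at 9.62. Spontaneous tumors averaged 6.22 for Vil1, 6.73 for Guca2a and 6.16 for Gpa33, beside 5.80, 6.04 and 5.88 in control. Fabp1, a fatty acid binding protein of liver and intestine, rose in both groups, by 2.18 ± 0.57 in treated and 2.71 ± 0.63 in spontaneous tumors (adjusted p = 0.00642 and 0.00394). The list's median was 0.48 in treated and 0.25 in spontaneous tumors, beside 0.089 and 0.12 over all genes.

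Of 17 HNF4A and hepatic endoderm genes, 5 rose in treated tumors, a share near the 23.8% of all genes, and 2 in spontaneous tumors, a share below the 20.1% of all genes. None fell, and the list's median was 0.15 in treated and 0.22 in spontaneous tumors. Apob, the apolipoprotein of liver and gut, rose by 2.86 ± 1.07 in treated tumors (limma, adjusted p = 0.0449). Its values were 5.64, 10.59, 6.13, 8.31, 12.29 and 9.79 in treated tumors 1 to 6, with spontaneous tumor 1 at 10.18, and it was low in treated tumor 3, where Gkn2 was high. Foxa3, a forkhead factor of gut and liver, rose by 2.22 ± 0.62 (adjusted p = 0.0104) and Alb, albumin, by 2.49 ± 0.68 (adjusted p = 0.00895) in treated tumors. In spontaneous tumors Foxa3 averaged 6.06 and Alb 8.17, against 4.85 and 6.53 in control and 7.07 and 9.02 in treated tumors. Pck1, a gluconeogenic enzyme, rose in both groups, by 3.02 ± 0.40 in treated and 2.39 ± 0.44 in spontaneous tumors (adjusted p = 3.15e-05 and 0.000762). Hnf4g, the closest relative of Hnf4a, gave 0.089 ± 0.15 in treated tumors (adjusted p = 0.671) and Gata4, a gut and liver GATA factor, 0.078 ± 0.12 (adjusted p = 0.646). In treated against spontaneous tumors, limma called 0 of the genes of these 3 lists, with 2, 4 and 1 at an unadjusted p under 0.05. Of the 20 genes of other organs described below, 2 also reached that limit.

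Lung identity genes were high in the same samples. Nkx2-1 rose by 0.87 ± 0.16 in spontaneous (limma, adjusted p = 0.00082) and 0.52 ± 0.15 in treated tumors (adjusted p = 0.0103). Foxa2 rose by 0.67 ± 0.16 and 0.86 ± 0.14 (adjusted p = 0.00475 and 0.00025). Foxa1 gave 0.23 ± 0.28 and 0.27 ± 0.26 and Sftpc, near the top of the scale, -0.012 ± 0.11 and 0.023 ± 0.10, none of which passed. Treated tumors 2, 3, 5 and 6, with the highest Gkn2, had Nkx2-1 at 9.12, 9.20, 9.33 and 9.34. These values lay above control, at 8.60 to 9.04, and below the 4 spontaneous tumors, at 9.57 to 9.84, while treated tumors 1 and 4, with low Gkn2, had 9.13 and 9.98. Of the 17 lung lineage and alveolar type 2 genes, 13 rose in spontaneous tumors and 14 in treated tumors, where 1, Sox2, fell.

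Lists for other tissues were counted in the same way. Of 13 pancreatic and hepatic secretory genes, 4 rose in spontaneous and 1 in treated tumors, the latter being Cela1, an elastase, by 3.48 ± 0.53 (limma, adjusted p = 0.000117). Of 10 squamous oesophageal and forestomach genes, 1 rose in spontaneous and 2 in treated tumors, led by Ivl, involucrin, at 2.94 ± 0.56 in treated tumors (adjusted p = 0.000678). Ivl was as high in spontaneous tumors, with means of 5.24 in control, 8.24 in spontaneous and 8.18 in treated tumors. Of 14 airway goblet and club cell genes, 1 rose and 2 fell in spontaneous, and 1 rose and 4 fell in treated tumors, the riser being Bpifa1. Of 20 genes of other organs, such as testis, eye, tooth and brain, taken as a low reference, 1 rose in spontaneous and 1 fell in treated tumors. The means of these 20 over the arrays used ran from 2.92 to 8.55, with 2 above 7. Atp4a, of the gastric acid pump, rose by 0.46 ± 0.12 in treated tumors (limma, adjusted p = 0.00651). Its mean was 4.50 in control, 5.06 in spontaneous and 4.97 in treated tumors. The mean of the 18 gastric genes was 5.69 to 6.00 in control and 5.86 to 6.41 in treated tumors. A stomach or intestine admixture was not tested beyond these values.

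**Figure D5:**
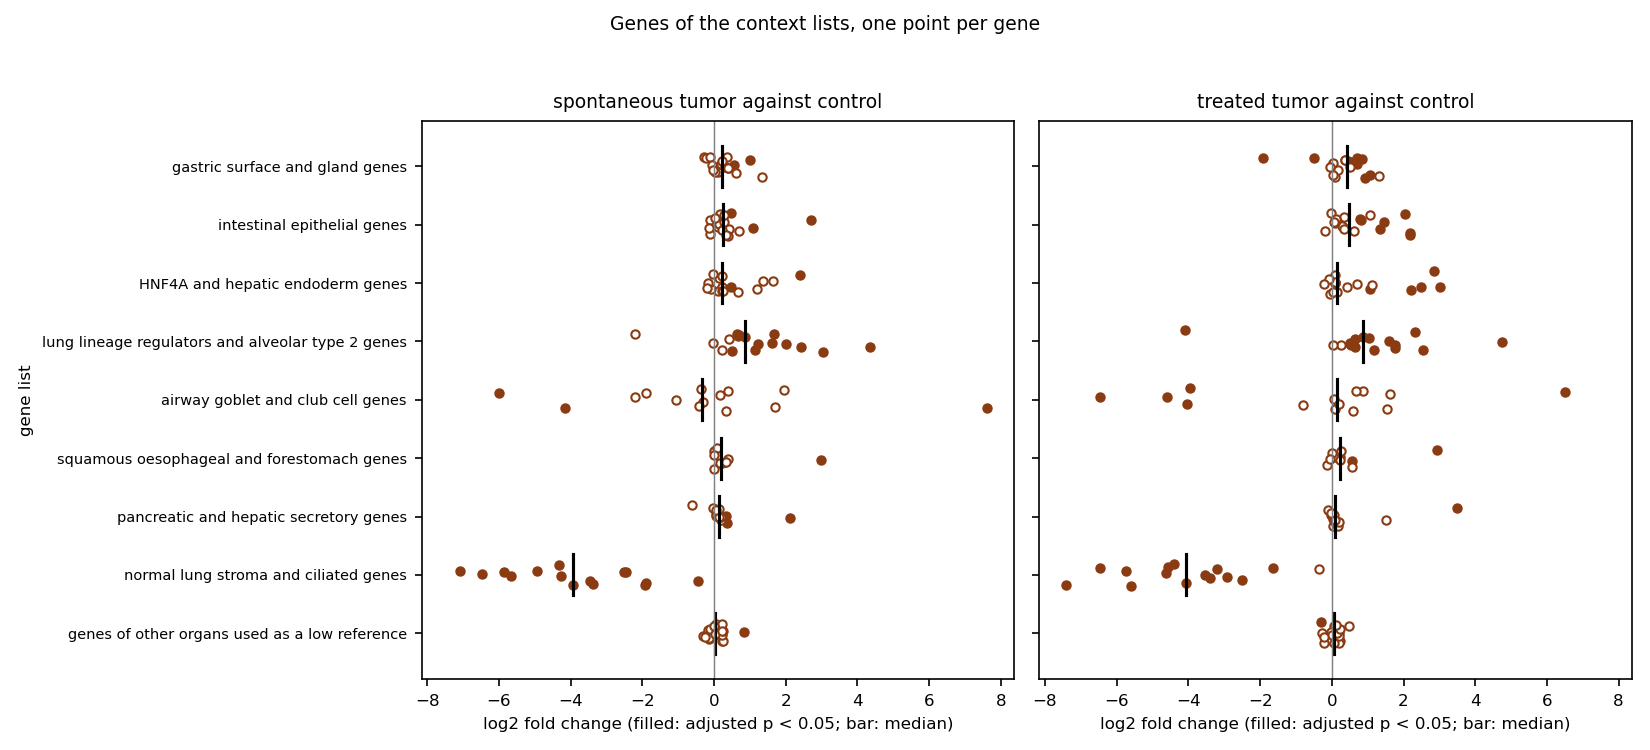
Log2 fold change of every gene of the lists (1 point per gene, filled where the adjusted p was under 0.05, bar at the list's median), for spontaneous and treated tumors against control. In treated tumors the intestinal and hepatic lists hold filled points up to 2.19 and 3.02 log2 units, and the medians lie at 0.48 and 0.15.

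The genes whose pattern over the 10 tumors was most like a member's were taken from the 438 genes with an SD of at least 1 there. Of the members, 3 met that limit. For Gkn2 they were Styk1 (r = 0.949), Fhit (0.949), Gzme, a granzyme (0.944), Itih2, an inter-alpha-trypsin inhibitor heavy chain (0.933) and Svopl (0.923). Gzme read 2.54 to 3.09 in control and 8.96, 8.39, 10.66 and 9.12 in treated tumors 2, 3, 5 and 6. Fhit read 9.42, 7.43, 8.93 and 9.08 in those tumors, within its control range of 6.98 to 9.52, so it did not rise over control there. For Tff3 they were Atoh1, the factor of intestinal secretory cells (0.95), Spink4, a goblet cell protein (0.925), Trim31 (0.911), Guca2a (0.854) and Alb (0.791). Treated tumor 2 was the highest array for each of these 5, so these likenesses rest on it. Atoh1 read 8.08 there and 6.16 in treated tumor 6, against 3.94 to 4.38 in control. For Slc2a2 they were Fras1 (0.823), Cep55 (0.799), A330076H08Rik (0.795), Armc3 (0.761) and Bpifa1 (0.76). A330076H08Rik read 6.49 to 8.75 in control and 3.58 to 6.85 in the tumors. Armc3 read 6.71 to 7.83 in control and 4.96 to 7.85 in the tumors. A high r over tumors therefore does not mean a rise over control. These r are descriptions over the 10 tumor arrays, chosen as the highest among many.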

How the data were processed

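The deposited values are log2 expression per probe set, made by the authors with RMA (background correction, joint normalization and summary of probes), per the submitters' processing notes; its version is not given in the sources used here. Per the series' design text, the submitters compared groups with ORIOGEN, which was not run here. Of 45101 probe sets, 34945 carried 1 gene symbol, and 18193 genes were tested on the probe set with the highest mean over 15 arrays. Depth has no meaning for arrays; their number limits the precision, and the median standard error was 0.15 to 0.17 log2 units. The 3 poor arrays were left out.

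Genes were compared with limma 3.58.1 (R 4.3.3), with 1 mean per group over 15 arrays, and Benjamini-Hochberg adjustment over all genes. Fits of further probe sets were adjusted over all probe sets with 1 symbol. Relations between members used 100000 permutations, or exact ones within treated tumors. The code was tested on simulated data. Promoter sequences and coordinates came from RefSeq tables of GRCm38.p6, where 7 of 10 members had a window.

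The members and lists were chosen with earlier results of these data known. All members were named; from a list, up to 6 genes with the smallest p and a few regulators (Nkx2-1, the FOXA factors, Hnf4g, Gata4, Cdx1, Muc5ac, Sftpc) could be named, and the 5 genes most alike for members with an SD of at least 1. Alternatives were other normalizations and probe set rules, all 18 arrays, array weights, a filter on low genes, a 2-fold limit, the replicate block and each array left out. Same-numbered arrays of different groups had correlations of deviations from -0.15 to 0.30, above 0.1 in 2 of 13 pairs. The labels do not say whether the numbers pair arrays. These correlations cannot decide it, because paired samples need not correlate, so the replicate block was kept as an alternative only.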

Additional observations from a re-analysis of the deposited data

Results flagged for a closer look

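Tff1 held a lone array in each group. Control 4 was lowest at 6.91 with the next at 7.20, spontaneous tumor 2 highest at 7.41 with the next at 7.28, and treated tumor 3 highest at 9.61 with the next at 7.97. In all, 30 groups were examined, and 3 had such an array; chance gives about 1 in 20.

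In the arrays left out for quality, some members read above all 6 control arrays, the left-out one included. Tff3 read 12.1 in spontaneous tumor 5 and 9.64 in spontaneous tumor 6, with the highest control at 7.90. Tff2 read 9.14 and 9.20 in the same arrays, with the highest control at 7.07, and Slc2a2 6.82 and 6.37, with 5.65. Tff1 read 9.0 in spontaneous tumor 5 (7.96) and Gkn3 7.74 there (7.73). In spontaneous tumor 6, Gkn1 read 6.74 (6.22) and Lgals4 9.06 (7.99). Left-out control 5 was high too, with Gkn2 at 8.35 and Hnf4a at 8.86, where the controls used reached 4.52 and 6.81. The 20 genes of other organs taken as a low reference averaged 7.38 on that array. They averaged 7.57 and 6.96 on spontaneous tumors 5 and 6, against 5.12 to 5.52 on the arrays used. The 3 left-out arrays have a narrower spread of all values, an SD of 1.27 to 1.48 against 2.35 to 2.45, so their values are not on the scale of the others. The part of these shifts in the readings above was not tested.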

How the results depend on the processing

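With all 18 arrays and array weights, 4 of 10 members were called in treated tumors against control, Hnf4a (0.96) and Tff3 (1.63) being added. With genes below the median mean left out, 0 members were called against control in either tumor group, because the members that rose have low means and were not tested. Leaving out 1 array at a time gave 2 to 4 called members in treated tumors. With the replicate block, 3 were called in treated tumors, Hnf4a with 0.57 (adjusted p = 0.0422) added to Gkn2 and Slc2a2, 1 in spontaneous tumors and 0 between the tumor groups. Quantile normalization, median centring and averaging the probe sets of each gene also added Hnf4a, at 0.97, 0.99 and 2.16. The share of all genes called in each of these settings is not given here, so the member counts were not set against a background. Hnf4a was called in 7 of 25 settings, with an adjusted p between 0.00842 and 0.639. Gkn2 in treated tumors was called in 25 of 25 (4.39 to 5.90, adjusted p up to 0.0486), and Slc2a2 in both groups in 25 of 25. No called value changed sign. The r of Gkn2 and Hnf4a was 0.546 with 12 tumor arrays.

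No detection calls were analysed here, so a low value in control lung cannot be told apart from background. The treated tumors' exposure levels and sexes are unlabelled, and control lung differs from dissected tumor in its mix of cells.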

Other observations

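Pgc, the pepsinogen C that stomach and alveolar cells make, read 11.17 in treated tumor 4 and 5.34 to 7.11 in the other 9 tumors, against 5.24 to 6.16 in control; it was chosen after its values were seen. Treated tumor 4 was among the lowest for Gkn2, at 5.21. Fabp1 was highest in treated tumor 1, at 11.76, where Gkn2 read 5.56.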
